A study of Mus musculus with 15 samples.

Results

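The nuclear genes for subunits of the mitochondrial respiratory chain were examined for histone marks in pancreatic islets. The set held 45 genes of complexes I to IV, taken by name from a list, out of 21938 protein-coding genes. Chromatin immunoprecipitation followed by sequencing (ChIP-seq) had been done for H3K27Ac, acetylation of lysine 27 of histone H3, which marks active promoters and enhancers, and for H3K27Me3, trimethylation of the same lysine, which marks chromatin repressed by Polycomb. Islets came from CBA mice, males according to the study's methods, on a regular diet (RD), a high-fat diet (HFD) or the high-fat diet with O304 (HFD-O304), a compound described in the study as an activator of the energy sensor AMP-activated protein kinase. About 600 hand-picked islets, pooled from several animals, went into each ChIP, so that the values are those of whole islets and not of beta cells alone. Each mark and diet had 2 replicates, which the authors merged before calling peaks, and therefore 1 peak list. Variation between replicates is lost in such a list, and differences between diets were not testable.

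The respiratory chain passes electrons from NADH and succinate to oxygen and pumps protons across the inner mitochondrial membrane, and ATP synthase uses the gradient. In beta cells the ATP made in this way closes ATP-sensitive potassium channels and so couples glucose to insulin secretion. Complex I has a matrix arm, which oxidises NADH, and a membrane arm, which pumps. Complex II is succinate dehydrogenase, complex III passes electrons to cytochrome c, and complex IV reduces oxygen. All but complex II also hold subunits made from mitochondrial DNA, which are not among the genes studied here.

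A gene was taken to carry a mark at its promoter when a peak overlapped the window of 1000 bp either side of its start. H3K27Ac was found at the promoters of 42 of the 45 genes in RD, 44 in HFD and 42 under HFD-O304. Among all protein-coding genes the shares were 44.1%, 49.9% and 49.4%. In all 3 diets 41 of the 45 genes had the mark, against 42.5% of all genes. H3K27Me3 was found at the promoter of 1 gene in RD and of none in HFD or HFD-O304, where it covered 6.63%, 8.46% and 8.88% of all promoters. Since the 45 genes are used by nearly every cell while many protein-coding genes are silent in islets, the shares over all genes are a background and not a matched control.

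**Figure D1:**
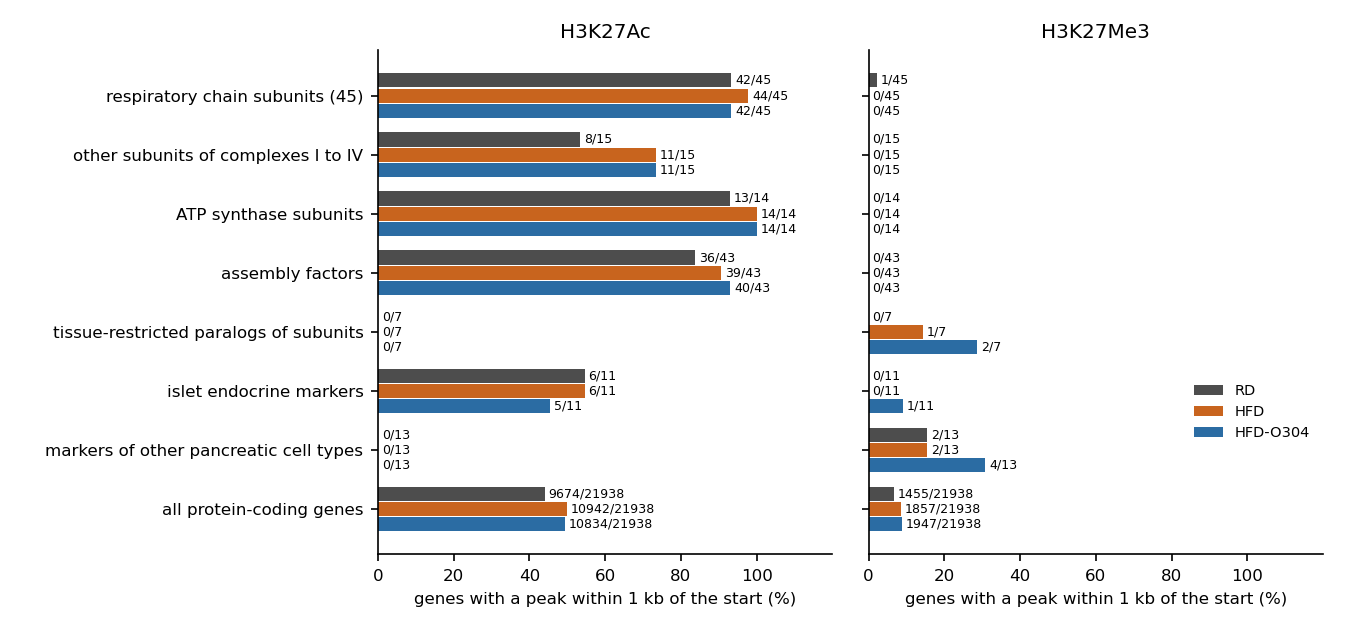
Genes with an H3K27Ac peak (left) or an H3K27Me3 peak (right) within 1 kb of the start, as a percentage of each gene list, in RD (grey), HFD (orange) and HFD-O304 (blue), with the number of genes beside each bar. H3K27Ac reached 42 to 44 of the 45 respiratory chain genes and none of the 7 tissue-restricted paralogs, and H3K27Me3 reached at most 1 of the 45.

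The label of the tissue was checked against marker genes. H3K27Ac lay at the promoters of 6 of 11 islet markers in RD and HFD and of 5 in HFD-O304. These shares of 54.5%, 54.5% and 45.5% were near the 44.1%, 49.9% and 49.4% of all protein-coding genes, so the count alone does not identify the tissue. The promoters of Pdx1, Nkx6-1, Mafa, Isl1 and Chga carried the mark in every diet, and that of Ins1 in RD and HFD. No peak was called at the first annotated start of Ins2, although another of its transcript starts had one in each diet with 2.81, 2.75 and 2.75 times the background, and none was called for Iapp, Gcg, Sst or Ppy. None of 13 markers of acinar, ductal, endothelial, immune and stromal cells had H3K27Ac at the first annotated start in any diet, although another transcript start of the ductal marker Krt19 had a peak in HFD-O304 (2.48). Whether the islet preparations differed in cell composition was not tested.

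Peak strength was expressed as the mean pileup, the number of fragments covering a base, divided by the uniform background, which is the number of kept fragments times the fragment length over the effective genome size. The H3K27Ac lists rested on 83773042 (RD), 95218072 (HFD) and 84694188 (HFD-O304) kept fragments, and the weakest peak in them stood at 2.40, 2.26 and 2.37 times the background. The H3K27Me3 lists had 74870300, 54166902 and 57324419 fragments and lowest values of 2.74, 3.10 and 2.97. Intervals in brackets are 95% intervals for the counting of fragments alone and say nothing of variation between mice.

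Over the genes with a peak, the H3K27Ac of respiratory chain promoters was of ordinary strength. Its median was 3.18 times the background in RD, 3.25 in HFD and 3.37 under HFD-O304, next to 3.17, 3.27 and 3.30 over all genes with a promoter peak. Placed among those genes, the members lay at a median percentile of 51.3 in RD, 49.2 in HFD and 53.9 under HFD-O304. Of the 42, 44 and 42 members with a peak, 3, 4 and 3 were at or above the 90th percentile of strength, near the share that this percentile sets for all genes. The median width of their peaks was 875.5, 1000 and 973 bp, beside 967, 1086 and 1061.5 bp over all genes, and their median width percentile was 44.1, 44.9 and 44.5. The genes were thus acetylated nearly throughout, at levels in the middle of the range of acetylated promoters.

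**Figure D2:**
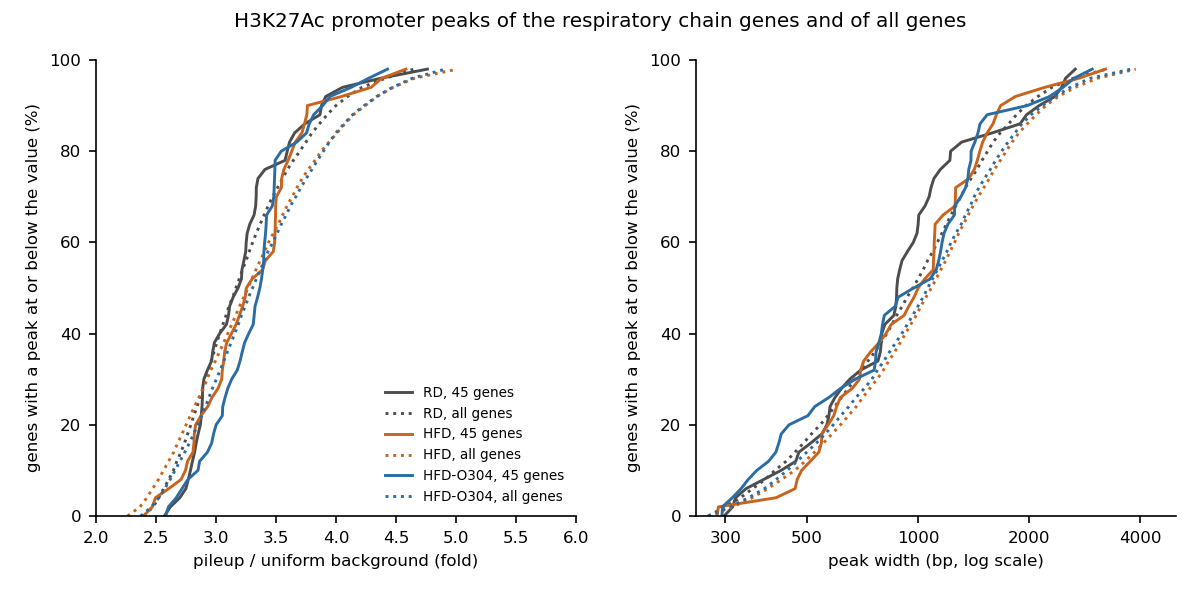
Cumulative distribution of peak strength (left, pileup over uniform background) and of peak width (right, log scale) for H3K27Ac promoter peaks of the 45 genes (solid lines) and of all protein-coding genes (dotted lines) in each diet, drawn up to the 98th percentile. The curves for strength cross near their medians of 3.17 to 3.37, and the width curves of the 45 genes lie mostly to the left.

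The matrix arm of complex I had 15 genes in the set. H3K27Ac was called at 14 of them in RD, at 15 in HFD and at 13 under HFD-O304, with median strengths of 2.91, 2.82 and 3.09, below those of the membrane arm and of complexes II to IV. Ndufv1, which carries the flavin that accepts electrons from NADH, stood at 3.16 times the background in RD, 3.12 in HFD and 3.48 under HFD-O304. Ndufv2, an iron-sulphur subunit beside it, stood at 3.08, 3.71 and 3.74, and the iron-sulphur subunit Ndufs1 at 2.83, 3.38 and 3.42. For these iron-sulphur subunits RD was the lowest of the diets. The Ndufs1 peak was widest in RD (1952, then 1636 and 1368 bp), while that of Ndufv2 was narrowest there (944, 1262 and 1257 bp). In every diet the Ndufs1 peak also covered the start of Eef1b2, 8 bp away. The iron-sulphur subunits Ndufs7 and Ndufs8, which hand electrons on towards ubiquinone, had 3.12, 3.05 and 2.86, and 2.76, 2.50 and 3.05. In the accessory subunits Ndufs4 (2.81, 3.49 and 3.39) and Ndufa6 (3.21, 3.50 and 3.33) RD was again lowest. Of the 14 matrix arm genes with a peak in both lists, however, these 4 were the only ones higher in HFD than in RD (28.6%, with 66.5% over all genes), and the median log2 ratio was -0.03. Ndufs6 had the lowest mean strength of the genes marked in every diet, at 2.79, 2.48 and 2.73.

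The membrane arm of complex I was represented by 15 genes, 14 of them acetylated in RD, 14 in HFD and all 15 under HFD-O304. Their median strengths were 3.10, 3.32 and 3.37. Ndufb2 was the strongest, at 3.60 in RD, 4.27 in HFD and 3.81 under HFD-O304. Ndufb5 followed with 3.88, 3.41 and 3.36 and Ndufa10 with 3.62, 3.55 and 3.42, both of them highest in RD. Ndufa11 and Ndufa13 carried the widest peaks of complex I. At Ndufa11 they measured 3025, 3464 and 2801 bp and also covered the start of Vmac, 255 bp away. At Ndufa13 they measured 2427, 2552 and 2558 bp and covered 2 starts of other genes, of which Yjefn3 was the nearest at 154 bp. A single peak over several starts cannot be assigned to one of the genes. Ndufa4, which is named for complex I and found in complex IV, had 3.25, 3.07 and 2.85.

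All 4 genes of complex II carried H3K27Ac in every diet, and every one of these peaks covered the gene's start. The peaks of Sdha and Sdhd also covered the start of another gene in every diet, and that of Sdhc did so in HFD and HFD-O304. These peaks cannot be given to the complex II gene alone. Sdha, the flavoprotein that oxidises succinate, stood at 3.21 in RD, 3.49 in HFD and 3.49 under HFD-O304. Sdhb, the iron-sulphur subunit, stood at 3.33 (2.95 to 3.75), 3.74 (3.34 to 4.17) and 4.30 (3.80 to 4.84), so that its intervals in RD and HFD-O304 did not overlap. Its peak narrowed in the same order, from 1868 bp to 1689 bp and 1392 bp, and held about 279, 321 and 271 fragments. The higher mean in HFD-O304 thus belonged to a narrower peak with no more fragments in it than in RD. The membrane anchors Sdhc and Sdhd had 3.58, 3.76 and 3.77, and 3.34, 3.76 and 3.40. The Sdhd peak was widest in RD (2588 bp, then 1259 and 1166 bp), and that of Sdhc was narrowest there (573, 1105 and 1116 bp). In mean pileup RD was the lowest diet for each of the 4 genes. Across all genes with a peak in both lists, 66.5% were likewise higher in HFD than in RD, and 71.1% were higher in HFD-O304 than in RD. The share of all genes that were lowest in RD was not counted. Of the log2 ratios over RD at the genes of complex II, only that of Sdhb in HFD-O304 had a counting interval that excluded 0. At Sdhd the interval for HFD-O304 over RD ran from -0.23 to 0.28.

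Complex III had 6 genes in the set, with the widest range of strengths of any complex. Uqcrh, the hinge protein that assists the transfer to cytochrome c, carried the strongest promoter of the 45, at 4.82 (4.42 to 5.25) in RD, 4.91 (4.57 to 5.26) in HFD and 5.04 (4.70 to 5.39) under HFD-O304. Its peaks were also the widest on average, at 2466, 3181 and 3705 bp, and extended mostly upstream, over the start of Lrrc41 198 bp away on the other strand. Uqcrq stood at 4.16, 3.62 and 3.90 over 2148, 1951 and 2367 bp, and its peak covered the start of the oocyte growth factor gene Gdf9, 192 bp away. Uqcrb had 3.87, 3.25 and 3.56. Its peak began 58, 4 and 108 bp after its own start and in every diet covered the start of another gene, with Gm10767 the nearest at 464 bp. The core protein Uqcrc2 had 2.995, 3.25 and 3.25. Uqcr10 had 3.27, 2.96 and 3.20 in peaks of 298, 460 and 294 bp, where a fragment measured 269 to 270 bp. At the other extreme Uqcrc1, the other core protein, was called in HFD alone.

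The 4 genes of complex IV were acetylated in every diet. Cox5a was the second strongest promoter of the set, with 4.75 (3.92 to 5.70) in RD, 4.53 (3.97 to 5.15) in HFD and 3.97 (3.50 to 4.48) under HFD-O304. Its peak widened in the same order, from 539 bp to 1010 bp and 1463 bp, and held about 115, 233 and 263 fragments. The lower mean in HFD-O304 thus belonged to a wider peak with more fragments in it. Cox4i1, a subunit whose protein binds adenine nucleotides and adjusts the enzyme to them, stood at 3.93, 4.32 and 4.26 over 1221, 1264 and 1254 bp. Its peak covered 2 starts of other genes in every diet, of which Gm27021 was the nearest at 143 bp. Cox5b, which binds zinc, had 3.38, 2.84 and 2.99, and Cox6c had 3.10, 3.57 and 3.31.

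**Figure D3:**
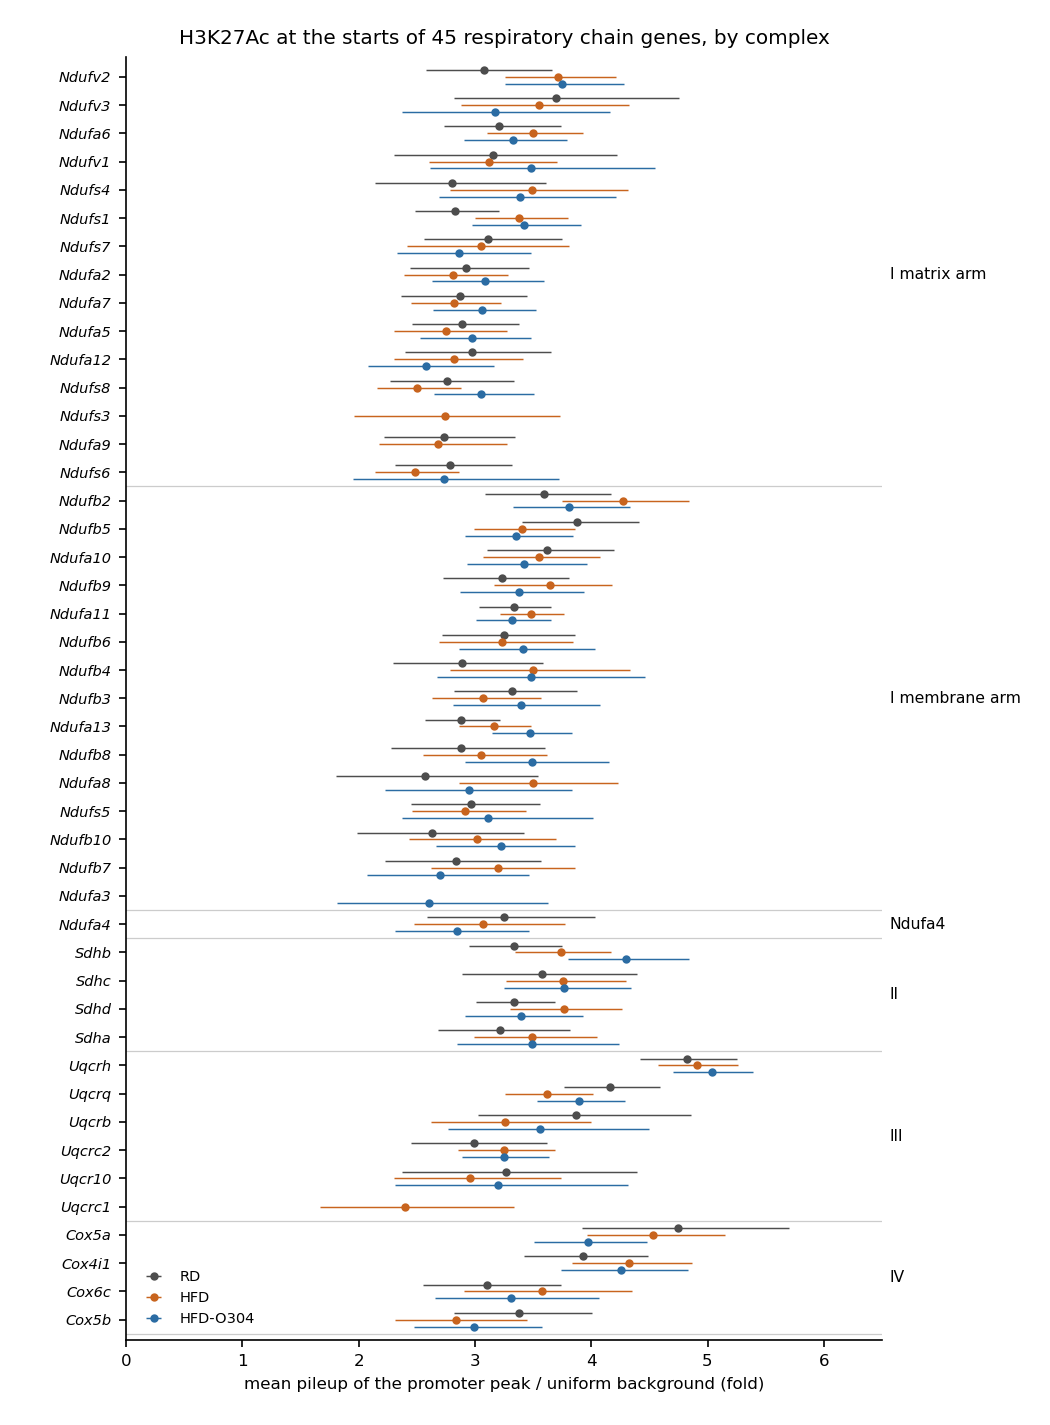
Mean pileup over uniform background of the H3K27Ac promoter peak of each gene in RD (grey), HFD (orange) and HFD-O304 (blue), grouped by complex and ordered within it by the mean, with 95% counting intervals; a missing point means that no peak was called. Uqcrh and Cox5a lie at the high end, most genes lie near 3, and Ndufs3, Ndufa9, Ndufa3 and Uqcrc1 lack points.

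The genes without a peak in some diet were few and weak where they had one. Uqcrc1 (chr9:108936633-108949623 on the plus strand of GRCm38) was called in HFD, at 2.40 (1.67 to 3.34) in 285 bp, and in neither RD nor HFD-O304. Ndufs3 (chr2:90894634-90904827, minus strand), a core subunit of the matrix arm, was likewise called in HFD alone, at 2.74 (1.96 to 3.73) in 288 bp. Ndufa3 (chr7:3617373-3620327, plus strand), a membrane arm subunit, was called in HFD-O304 alone, at 2.61 (1.82 to 3.63) in 295 bp. Ndufa9 (chr6:126821721-126849136, minus strand), a matrix arm subunit that binds NADPH, had 2.74 over 784 bp in RD and 2.68 over 699 bp in HFD, and no peak in HFD-O304. The peaks of Uqcrc1, Ndufs3 and Ndufa3 lay wholly inside their genes, beginning 222, 191 and 140 bp after the start, with 92.3%, 67.0% and 64.7% of their bases in exons and the rest in introns. Those of Ndufa9 spanned the start.

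The calls of Uqcrc1 and Ndufa3 stood close to the limit of detection, at percentiles 3.01 and 7.67 of strength among all genes with a promoter peak. Those of Ndufs3 (percentile 19.3 in HFD) and Ndufa9 (16.0 in RD and 16.2 in HFD) were weak but stood further above it. The lowest value in the H3K27Ac lists was 2.26 to 2.40, and a peak was never shorter than a fragment. The absence of a peak in one list therefore does not show that the mark was absent or lower. A promoter peak in HFD with none in RD was seen for 2 of the 45 genes (Ndufs3 and Uqcrc1) and for 6.61% of all genes, and the reverse for none of them and for 0.83%. In HFD-O304 and not in HFD there was 1 (Ndufa3) and 2.34% of all genes, and in HFD and not under HFD-O304 there were 3 (Ndufs3, Ndufa9 and Uqcrc1) and 2.83%. In HFD-O304 and not in RD there was 1 (Ndufa3) and 6.35%, and in RD and not in HFD-O304 there was 1 (Ndufa9) and 1.07%. With 42 of the 45 promoters marked in RD, only 3 were left that could gain a peak. The HFD list, in which 44 were marked, also had the most fragments, and the part of depth in these calls was not tested. When only peaks with a −log10 q of at least 5 were kept, 28, 38 and 36 of the 45 promoters remained in RD, HFD and HFD-O304. The shares over all promoters were 29.2%, 38.9% and 37.3%. At this limit 10 of the 45 had a peak in HFD and none in RD, as did 10.7% of all genes.

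**Figure D4:**
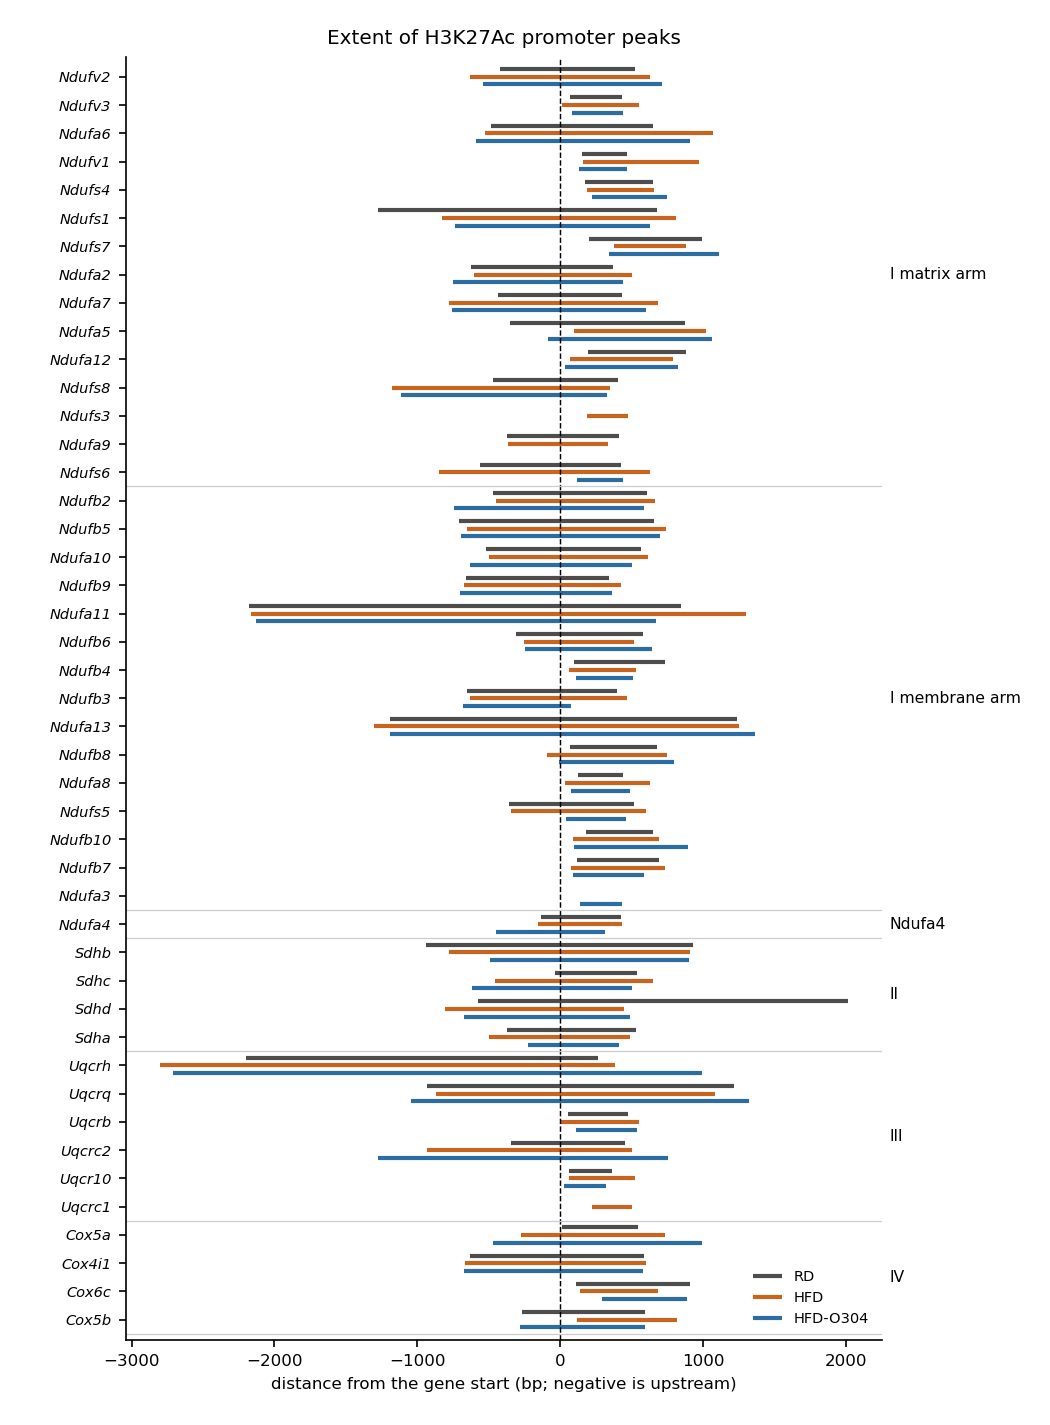
Extent of the H3K27Ac promoter peak of each gene relative to its start (dashed line; negative distances are upstream), in RD (grey), HFD (orange) and HFD-O304 (blue), in the order of the plot of peak strength. Most peaks span the start or begin just after it, and that of Uqcrh reaches 2201 to 2798 bp upstream.

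Promoters of the strongest and weakest genes are shown to let the sequences be read beside these values. The 250 bases before the annotated start are given 5′ to 3′ on the gene's strand, from the C57BL/6J reference of GRCm38, in lower case. Capitals mark the letters of any of 6 motifs of factors known at genes of mitochondrial proteins or at promoters in general: GCGCANGCG (NRF1), CCGGAAG (the ETS family, with GABPA), AANATGGCG (YY1), AAGGTCA (the oestrogen-related receptors), GGGGCGG (SP factors) and CCAAT (NFY), searched on both strands. The first 3 promoters had the highest mean strength of the 45 and the last 2 the lowest. They lie at chr4:116075072-116075321 (minus strand), chr9:57521024-57521273, chr8:120667972-120668221, chr7:3617123-3617372 and chr9:108936383-108936632 (plus strand).
Uqcrh: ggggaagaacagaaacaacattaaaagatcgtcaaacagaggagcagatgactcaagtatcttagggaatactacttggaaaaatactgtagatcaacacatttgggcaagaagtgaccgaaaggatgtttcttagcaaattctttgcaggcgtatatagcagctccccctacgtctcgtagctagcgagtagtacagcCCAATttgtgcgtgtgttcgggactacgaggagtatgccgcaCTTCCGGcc
Cox5a: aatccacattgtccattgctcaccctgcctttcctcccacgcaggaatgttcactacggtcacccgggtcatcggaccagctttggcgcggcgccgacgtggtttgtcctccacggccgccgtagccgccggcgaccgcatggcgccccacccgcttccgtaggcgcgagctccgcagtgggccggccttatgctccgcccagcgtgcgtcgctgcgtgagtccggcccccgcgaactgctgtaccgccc
Cox4i1: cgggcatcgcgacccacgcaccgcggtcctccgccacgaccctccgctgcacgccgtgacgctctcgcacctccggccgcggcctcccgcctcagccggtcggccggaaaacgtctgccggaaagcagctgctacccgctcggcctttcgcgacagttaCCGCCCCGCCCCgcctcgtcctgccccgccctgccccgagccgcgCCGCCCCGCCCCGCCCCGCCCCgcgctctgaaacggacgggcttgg
Ndufa3: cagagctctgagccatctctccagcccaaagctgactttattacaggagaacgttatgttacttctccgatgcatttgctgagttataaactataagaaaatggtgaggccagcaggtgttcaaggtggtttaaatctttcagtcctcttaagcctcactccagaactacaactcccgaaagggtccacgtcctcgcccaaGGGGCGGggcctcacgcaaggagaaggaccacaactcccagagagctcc
Uqcrc1: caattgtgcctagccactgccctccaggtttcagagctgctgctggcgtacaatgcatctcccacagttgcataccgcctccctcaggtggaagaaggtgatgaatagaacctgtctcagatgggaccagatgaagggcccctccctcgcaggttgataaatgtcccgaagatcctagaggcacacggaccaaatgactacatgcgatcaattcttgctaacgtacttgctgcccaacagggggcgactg

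The promoter of Uqcrh held an ETS motif 9 bp and a CCAAT box 51 bp before the start. That of Cox4i1 was the richest in G and C of the 45, at 77.2%, and held runs of SP motifs on the minus strand. Ndufa3 had an SP motif 49 bp before the start, and Cox5a and Uqcrc1 had none of the 6 in this window. Strong and weak promoters were thus found with and without these letters.

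Over the 45 genes the same window had a median GC content of 55.2% and a ratio of observed to expected CpG of 0.71. Genes with H3K27Ac in all 3 diets had 60.4% and 0.75, and all protein-coding genes 54.0% and 0.49. The NRF1 motif was found in 6 members (13.3%), in 12.1% of the acetylated genes and in 6.66% of all genes. These members were Ndufs7, Ndufa11, Ndufs5, Ndufb4, Sdha and Sdhd, which stood between 2.86 and 3.76 in every diet. The receptor motif was found in 4 members (8.89%), namely Ndufs1, Ndufs5, Ndufb2 and Uqcrq, beside 2.54% and 3.64%. The ETS motif occurred in 3 (6.67%, beside 13.9% and 8.03%), YY1 in none (beside 2.26% and 1.27%), SP in 15 (33.3%, beside 40.3% and 25.4%) and CCAAT in 13 (28.9%, beside 34.8% and 36.0%). Counts for NRF1, ETS, YY1 and the receptors were 12, 12, 9 and 8 in a window from 500 bp before to 100 bp after the start, which are 26.7%, 26.7%, 20.0% and 17.8% of the members. The shares of the acetylated genes were 17.99%, 23.7%, 7.61% and 7.58% there, and those of all genes 9.90%, 13.7%, 4.16% and 9.41%. SP and CCAAT were each found in 18 members (40%) in this window, beside 53.1% and 55.0% of the acetylated genes and 33.6% and 58.3% of all genes. A match of letters is not a bound site, and shares of so few genes carry a wide error.

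Many of the genes shared a promoter region with a neighbour. In 15 of the 45 another protein-coding gene began on the opposite strand within 1 kb upstream, against 6.79% of all genes. All 15 were among the 41 genes acetylated in every diet, where the background share was 13.5%. The partners included Timm8b (98 bp from Sdhd), a chaperone of mitochondrial import, Ccdc127 (29 bp from Sdha), Rps28 (10 bp from Ndufa7), Ik (99 bp from Ndufa2) and Gdf9 beside Uqcrq. The H3K27Ac promoter peak covered the start of another gene in 38.1% of the members with a peak in RD, 36.4% in HFD and 38.1% under HFD-O304, compared with 19.9%, 20.0% and 19.6% of all genes with a peak. At such promoters the mark cannot be given to the respiratory chain gene alone.

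The peaks sat on or just behind the start of transcription. The start was covered in 28 of 42 genes in RD, 28 of 44 in HFD and 27 of 42 under HFD-O304 (66.7%, 63.6% and 64.3%). Among all genes with a promoter peak the shares were 66.6%, 72.5% and 70.5%. In the remaining 14, 16 and 15 members the peak lay wholly inside the gene. It began after the start in 33.3%, 36.4% and 35.7% of the members with a peak, and in 30.7%, 25.5% and 26.9% of all genes with one. Over the members the median edges were 364.5 bp upstream and 572.5 bp downstream in RD, 407.5 and 632 bp in HFD, and 459.5 and 592 bp in HFD-O304. The centre of the peak was downstream of the start in 71.4%, 63.6% and 64.3% of them, and in 77.8%, 78.5% and 78.3% of all genes. By annotation a median of 28.1%, 25.5% and 27.6% of a peak's bases were in exons of the gene and 28.4%, 30.3% and 29.2% in its introns.

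H3K27Ac peaks away from the promoter were also listed. A peak within the gene or 5 kb of it was found for 42, 44 and 43 of the 45 genes, against 54.3%, 60.8% and 59.7% of all genes, which added 1 gene (Ndufs3 in HFD-O304) to those with a promoter peak. Besides the promoter peaks there were 11 in RD, 17 in HFD and 16 under HFD-O304. Of these, 7, 8 and 8 lay over or within 1000 bp of the start of a neighbouring gene. Inside a gene and away from any start there was none in RD, 1 in HFD (in Sdhc, 378 bp at 2.42) and 1 in HFD-O304 (in Ndufb8, 410 bp at 2.41). These counts beyond the promoter were not made over all genes, so they do not show whether such peaks were rarer here than elsewhere. The peak past the 3′ end of Ndufb10 (3.95, 3.60 and 3.53 over 1818, 1756 and 1751 bp) and that upstream of Ndufs6 (3.75, 3.54 and 3.68) were stronger than the promoter peaks of these genes. Neither covered a protein-coding start.

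H3K27Me3 touched 2 of the genes. Over the gene and 5 kb either side a peak was found for 2 genes in RD, 1 in HFD and 1 under HFD-O304, against 19%, 19.7% and 22.9% of all genes. At Uqcrh a peak of 979 bp (chr4:116075566-116076544) with 2.99 times the background (2.48 to 3.59) was called in RD, from -1473 to -495 bp relative to the start, inside the H3K27Ac peak and in the direction of Lrrc41. None was called there in HFD or HFD-O304, whose lists began at 3.10 and 2.97, just above and just below the value in RD. Its −log10 q was 3.18, and no H3K27Me3 peak at any of the 45 genes reached 5. At Ndufa13 peaks lay beyond the 3′ end, centred 13365 to 14095 bp from the start, at 2.75 over 300 bp in RD, 3.67 over 2393 bp in HFD and 3.32 over 2275 bp under HFD-O304. In HFD and HFD-O304 these lay over or within 1000 bp of the start of Cilp2, a gene of cartilage matrix. No gene body of the 45 held an H3K27Me3 peak.

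Differences between diets in the strength of H3K27Ac were small. Over genes with a peak in both lists the median log2 ratio was 0.01 for HFD over RD (42 genes), 0.00 for HFD-O304 over HFD (41 genes) and 0.07 for HFD-O304 over RD (41 genes), where all genes gave 0.07, 0.02 and 0.08. For HFD over RD 21 of the 42 genes were higher (50.0%, beside 66.5% of all genes), and single genes ranged from -0.25 to 0.44. The largest increases were at Ndufa8 (2.57 in RD and 3.50 in HFD, log2 0.44), Ndufs4 (log2 0.32) and Ndufb4 (2.89 and 3.50, log2 0.28), and the largest decreases at Cox5b (log2 -0.25), Uqcrb (log2 -0.25) and Uqcrq (log2 -0.20). All of these 6 had counting intervals that included 0, from -0.09 to 0.98 for Ndufa8.

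With O304 added to the high-fat diet 21 of 41 genes were higher than in HFD (51.2%, beside 55.4% of all genes). Ndufs8 (log2 0.29, from 0.003 to 0.57), Sdhb (log2 0.20) and Ndufb8 (3.05 and 3.49, log2 0.20) led the increases, while Ndufa8 (log2 -0.25), Ndufb7 (3.20 and 2.70, log2 -0.24) and Cox5a (log2 -0.19) led the decreases. Ndufa8 led the increases from RD to HFD and the decreases from HFD to HFD-O304, with 2.57, 3.50 and 2.95 in RD, HFD and HFD-O304. These values share the HFD list, so that a high value there gives both a rise and a fall. Against RD, HFD-O304 was higher at 27 of 41 genes (65.9%, beside 71.1% of all genes), led by Sdhb (log2 0.37, from 0.13 to 0.61), Ndufb10 (2.63 and 3.22, log2 0.29) and Ndufv2 (log2 0.28), and lower at Cox5a (log2 -0.26), Ndufv3 (3.70 and 3.17, log2 -0.22) and Ndufb5 (log2 -0.21).

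**Figure D5:**
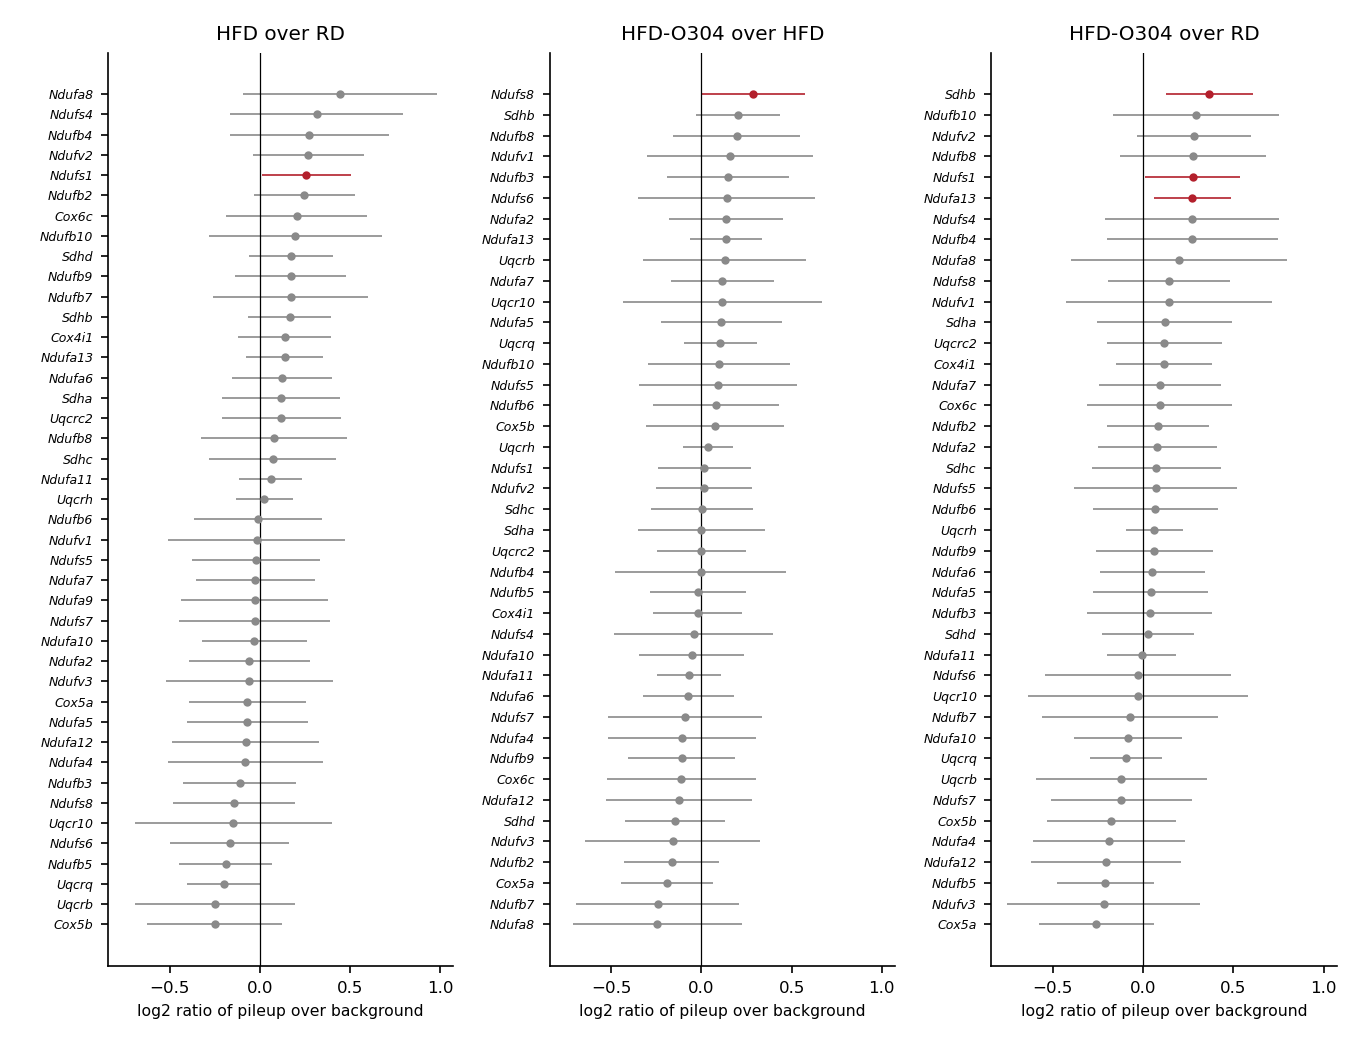
Log2 ratio of H3K27Ac pileup over background between diets for each gene with a promoter peak in both lists, sorted within each comparison, with 95% counting intervals. Intervals that exclude 0 are red: Ndufs1 in HFD over RD, Ndufs8 in HFD-O304 over HFD, and Sdhb, Ndufs1 and Ndufa13 in HFD-O304 over RD.

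Few genes had a counting interval that excluded 0. Higher in HFD than in RD was 1 of 42 (Ndufs1), beside 8.81% of all genes, and lower was none, beside 0.885%. Higher in HFD-O304 than in HFD was 1 of 41 (Ndufs8), beside 2.62%, and lower was none, beside 2.09%. Higher in HFD-O304 than in RD were 3 of 41 (Sdhb, Ndufs1 and Ndufa13, the last with a log2 of 0.27), beside 9.13%, and lower was none, beside 0.72%. The Ndufs1 and Sdhb peaks were narrower in HFD-O304 than in RD (1368 against 1952 bp, and 1392 against 1868 bp). They held about 212 against 247 and 271 against 279 fragments. Ndufa13 had 2558 against 2427 bp, with about 403 against 313 fragments. In HFD the Ndufs1 peak measured 1636 bp and held about 282 fragments. Counting intervals leave out the variation between animals, and none of these differences was tested. The promoters kept much of their order of strength from diet to diet, with Spearman's rho across genes of 0.61 for RD and HFD, 0.72 for HFD and HFD-O304 and 0.54 for RD and HFD-O304, where all genes gave 0.76, 0.83 and 0.74. Genes are not independent replicates, and the points of a pair share their base composition.

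Widths moved more than strengths. Of the genes with a peak in both lists 30 of 42 were wider in HFD than in RD (71.4%, beside 71.0% of all genes), 18 of 41 were wider in HFD-O304 than in HFD (43.9%, beside 46.0%) and 25 of 41 were wider under HFD-O304 than in RD (61.0%, beside 67.1%). Uqcrc2 went from 796 bp in RD to 1432 bp in HFD and 2028 bp under HFD-O304, with strengths between 2.995 and 3.25. Sdhd went the other way, from 2588 bp to 1259 and 1166 bp. The narrowest peaks, on average, were those of Uqcrc1, Ndufs3 and Ndufa3, followed by Uqcr10 at 351 bp and Ndufv3 at 422 bp.

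The other genes of the pathway were described for comparison. Of 15 further subunits of complexes I to IV, 8 had H3K27Ac at the promoter in RD, 11 in HFD and 11 under HFD-O304. Ndufa1, Ndufb11 and Cox7b had none in any diet. They are the 3 genes of that list on the X chromosome, whereas all 45 members are autosomal. Over all protein-coding genes 6.96% of those on X carried H3K27Ac at the promoter in RD, 12.6% in HFD and 11.5% under HFD-O304, compared with 46.2%, 52.0% and 51.5% of autosomal genes. Male cells have a single X, while the background was uniform over the genome. The part of this in the missing peaks was not tested.

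ATP synthase subunits were acetylated at 13 of 14 promoters in RD and at all 14 in HFD and HFD-O304, and assembly factors at 36, 39 and 40 of 43. Sdhaf1, an assembly factor of complex II, and Cox19, one of complex IV, had no peak at the first start in any diet, and Cox19 had one at another transcript start (2.56, 2.37 and 2.86). The 7 tissue-restricted paralogs of subunits (Ndufa4l2, Cox4i2, Cox6a2, Cox6b2, Cox7a1, Cox8b and Cox8c), found mainly in muscle, lung, testis or hypoxic cells, had no H3K27Ac in any diet. H3K27Me3 was called there at Cox4i2 in HFD (3.20 over 598 bp) and HFD-O304 (3.17 over 442 bp) and at Ndufa4l2 in HFD-O304 (3.10 over 782 bp). In RD it was called at none of the 7. These values were close to the lowest of their lists, 3.10 in HFD and 2.97 in HFD-O304. Of all promoters 6.63%, 8.46% and 8.88% had an H3K27Me3 peak in RD, HFD and HFD-O304. The ubiquitous counterpart Cox4i1 was the third strongest promoter of the 45 and had no H3K27Me3 peak in any diet. Its H3K27Ac peak also covered 2 starts of other genes and cannot be given to Cox4i1 alone.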

How the data were processed

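Pancreatic islets of CBA mice on RD, HFD or HFD-O304 were profiled by ChIP-seq in 15 samples, 12 for the marks and 3 inputs. The authors mapped reads to GRCm38 with bowtie2, merged the 2 replicates of each mark and diet and called broad peaks with MACS 2.1.2 (q-value cutoff 0.01, no control), which gave the 6 lists used. The deposited pileup is the mean coverage signal of a peak, in fragments covering a base. The deposited −log10 q was computed by MACS against a uniform background, and the authors' fold enrichment is a ratio of pileup to background after adding 1 to both. Inputs were not used.

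Kept fragments were read from the headers (83773042 to 95218072 for H3K27Ac, 54166902 to 74870300 for H3K27Me3, with 17.2% to 18.4% and 45.7% to 56.9% duplicates). The background was kept fragments times fragment length over 1.87e+09 bases, and the ratio of pileup to it was analysed. Genes and starts came from GENCODE mouse release 21 (protein-coding, chromosomes 1 to 19, X and Y). The peak with the largest overlap of the window of 1000 bp either side of the start was taken as the promoter peak, and all peaks within the gene and 5000 bp either side were listed. Counting intervals (95%) were Poisson intervals on fragments, estimated as pileup times width over fragment length. On simulated data all overlaps were found. Python 3.11.15, numpy 2.4.6, pandas 2.3.3 and scipy 1.17.1 were used.

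The members and lists were chosen with earlier results of these data known. Genes were named by rule: members lacking a promoter H3K27Ac peak in any diet or with H3K27Me3, the 5 strongest, weakest, widest and narrowest, the 3 largest log2 ratios in each direction per pair of diets, and, in other lists, genes without promoter H3K27Ac in any diet. Others were named to describe each complex, after their values were seen. Atp5pb was not matched to an annotated symbol. A result that the rule would name in another list is not reported here. No test between diets was made. Alternatives changed the window, the choice of start, the limits on q, fold and overlap, the size of the lists, repeat-rich peaks, the measure and shared peaks.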

Additional observations from a re-analysis of the deposited data

How the results depend on the processing

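No paired analysis was possible because peaks were called after the authors merged the 2 replicates of each group, and for the same reason no alternative leaves out a replicate. Of 234 values of 33 results under the alternatives, 209 stayed within 1.5 times (counts) or within the interval of the median (medians), 25 moved and none reversed. Counts of members with H3K27Ac at the promoter moved by at most 1.5 times under each alternative, the furthest being 28 in RD under the limit on q.

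The few members with H3K27Me3 depended on the limit. Peaks reaching a −log10 q of 5 numbered 0 at the promoter and 0 within 5 kb of the gene in each diet. With a common fold cutoff there were 0 of either kind in RD, with an overlap of at least 200 bp 1 remained within 5 kb in RD, and for the gene body without extension 0 remained in any diet.

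Peaks present in one diet alone also moved. With a −log10 q of at least 5, 10 members had a peak in HFD and none in RD (10.7% of all genes), 2 in HFD-O304 and none in HFD (2.99%), 11 in HFD-O304 and none in RD (9.68%), and 3 in RD and none in HFD-O304 (1.66%). With lists of equal size, 1 had a peak in HFD and none in RD (4.4%), 1 in RD and none in HFD (2.01%), and 2 in HFD-O304 and none in HFD (3%).

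The median strength in RD rose to 3.32 with the limit on q, and that in HFD-O304 was 3.16 as the authors' fold enrichment, which adds 1 to both terms. The median width in HFD was 709.5 bp over members with a peak in HFD and in no diet one that covered another gene's start. The median log2 ratio of HFD over RD was 0.23 when strength was multiplied by width. For width alone the median log2 ratio was 0.12 over the members and 0.17 over all genes, and for strength alone it was 0.07 over all genes. The product was not computed over all genes, so 0.23 does not show a gain particular to the members. In the wider sequence window the counts of members with a motif were 12 (NRF1), 12 (ETS), 9 (YY1) and 8 (oestrogen-related receptors). Depth limits what can be said of weak promoters, as a gene without a peak may carry the mark below the lowest value of the list.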
